A study of Homo sapiens with 4 samples.

Results

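The genes described here encode the machinery that copies chromosomal DNA, from the proteins that mark an origin to those that seal the new strand. The 48 members were picked by symbol from the 58302 gene rows of a bulk RNA-seq table, and each of the 48 had exactly 1 row. The values are TPM, transcript levels scaled for transcript length and to a common total per library. The table holds 4 libraries of BLaER1, 2 differentiated and 2 undifferentiated. BLaER1 cells derive from a human B-cell precursor leukaemia and express C/EBPα, a myeloid transcription factor, joined to the hormone-binding part of the oestrogen receptor, so that oestradiol sends them towards a macrophage fate. The differentiated cells had spent 5 to 6 days in 100 nM oestradiol with 10 ng/ml interleukin-3 and with M-CSF; the undifferentiated cells were grown in RPMI medium with serum, and both stages come from the same line. A single leukaemia line stands for each fate, and no label states whether replicate libraries were grown apart, so the p-values rest on a spread that may be only technical.

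Replication begins when the origin recognition complex (ORC), CDC6 and CDT1 load the ring-shaped MCM2-7 helicase onto DNA. Geminin blocks reloading once S phase has started. The kinase CDC7 with its partner DBF4, together with CDK activity, then lets CDC45 and the GINS complex join MCM2-7 to form the active helicase. Polymerase alpha-primase lays down primers, the clamp loader RFC places the PCNA clamp, and polymerases epsilon and delta extend the leading and lagging strands. Most of these genes are known targets of E2F factors, which are held in check by RB-family proteins in resting cells. Terminal macrophage differentiation is classically accompanied by exit from the cell cycle.

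Because E2F control is the best known regulation that these genes share, their promoters were read for it. RefSeq promoter windows (GRCh38.p14) cover 250 bases before to 50 bases after an annotated start, 300 bases in all. Of the 48 members, 42 had at least 1 window, 53 windows in total; MCM4, MCM5, GINS4, POLD3, RPA2 and RPA3 had none in the table. The E2F-type motif was searched as TTTCCCGC, TTTCGCGC, TTTGCCGC or TTTGGCGC on both strands. It was present in 22 of the 42 members (52.4%), against 7.27% of the 7426 tested protein-coding genes that have a window and 3.99% of all 27305 genes with a window. By window, it was in 41.5% of the member windows and in 3.31% of all 35116 windows of the same length. The median GC content of the windows was 64.7% for the members and also 64.7% for the tested protein-coding genes. Among the 4647 tested genes whose GC content lay between the members' 10th and 90th percentiles (56.4% to 73.5%), 8.2% held the motif. These are matches of letters and show no binding.

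Windows of 6 members follow, each the base of a later result: a licensing factor, a helicase subunit, a GINS subunit, a polymerase, the clamp, and ORC2 as a member with no match. Each is 5′ to 3′ on the strand of the gene, and capitals mark the E2F-type matches, whose positions count from the annotated start. CDC6 lies on the plus strand at chr17:40287629-40287928, MCM6 on the minus strand at chr2:135876394-135876693, and GINS1 on the plus strand at chr20:25407423-25407722. POLA1 lies on the plus strand at chrX:24693668-24693967, PCNA on the minus strand at chr20:5126573-5126872, 1 of its 2 windows, and ORC2 on the minus strand at chr2:200963611-200963910.
CDC6: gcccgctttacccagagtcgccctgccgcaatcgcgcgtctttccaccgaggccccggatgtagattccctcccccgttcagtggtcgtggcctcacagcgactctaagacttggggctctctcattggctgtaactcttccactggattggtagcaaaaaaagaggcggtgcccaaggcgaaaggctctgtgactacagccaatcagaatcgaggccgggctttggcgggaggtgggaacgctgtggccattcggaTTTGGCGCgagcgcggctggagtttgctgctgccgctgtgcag
MCM6: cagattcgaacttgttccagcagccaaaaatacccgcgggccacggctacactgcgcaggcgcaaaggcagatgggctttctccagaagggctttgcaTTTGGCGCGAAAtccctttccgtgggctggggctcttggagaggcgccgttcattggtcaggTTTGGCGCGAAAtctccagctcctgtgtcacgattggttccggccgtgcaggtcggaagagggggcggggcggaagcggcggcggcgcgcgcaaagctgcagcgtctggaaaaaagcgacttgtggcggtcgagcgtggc
GINS1: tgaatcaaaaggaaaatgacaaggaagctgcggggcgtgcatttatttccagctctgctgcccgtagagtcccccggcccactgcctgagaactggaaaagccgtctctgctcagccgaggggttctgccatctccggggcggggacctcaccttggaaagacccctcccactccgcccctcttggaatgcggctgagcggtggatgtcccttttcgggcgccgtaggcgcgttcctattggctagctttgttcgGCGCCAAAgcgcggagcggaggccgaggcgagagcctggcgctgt
POLA1: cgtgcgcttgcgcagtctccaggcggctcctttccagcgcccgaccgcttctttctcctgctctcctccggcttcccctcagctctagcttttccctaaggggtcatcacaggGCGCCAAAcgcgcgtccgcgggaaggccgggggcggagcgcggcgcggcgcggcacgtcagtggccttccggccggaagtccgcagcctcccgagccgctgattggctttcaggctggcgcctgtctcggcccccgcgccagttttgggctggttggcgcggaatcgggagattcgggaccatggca
PCNA: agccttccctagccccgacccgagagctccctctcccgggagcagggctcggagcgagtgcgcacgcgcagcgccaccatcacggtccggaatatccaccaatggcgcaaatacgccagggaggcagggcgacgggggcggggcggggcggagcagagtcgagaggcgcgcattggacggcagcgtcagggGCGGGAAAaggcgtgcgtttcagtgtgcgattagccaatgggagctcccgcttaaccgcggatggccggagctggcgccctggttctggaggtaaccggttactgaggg
ORC2: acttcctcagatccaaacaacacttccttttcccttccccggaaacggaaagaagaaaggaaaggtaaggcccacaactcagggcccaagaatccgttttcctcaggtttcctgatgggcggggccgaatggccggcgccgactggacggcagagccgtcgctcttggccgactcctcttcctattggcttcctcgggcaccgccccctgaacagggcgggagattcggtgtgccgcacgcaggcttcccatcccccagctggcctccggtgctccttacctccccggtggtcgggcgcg
In CDC6 and GINS1 the match begins at positions 8 and 6, with the annotated start as 1. In MCM6 there are 4 matches, in 2 blocks where TTTGGCGC on the strand of the gene overlaps TTTCGCGC on the other strand, beginning at -152 and -148 and again at -90 and -86. In POLA1 the match begins at -137 and in PCNA at -59. The ORC2 window has none of the 4 spellings, which says only that these letters are not in this window.

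Other promoter motifs were searched in the same windows on both strands. CCAAT, read by the factor NF-Y, was in 59.5% of the 42 members and in 44.2% of the tested protein-coding genes. The GC box GGGCGG was in 78.6% of the members and 77.8% of those genes, and the E-box CACGTG in 19.0% and 13.4%. The cell cycle homology region, searched as TTTGAA or TTCGAA and best known from promoters of mitotic genes, was in 2 of the 42 members (4.76%) and in 15.8% of those genes.

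Every functional role of the replication machinery held transcripts that fell in differentiated cells, while ORC2, ORC4, ORC5, POLE and RPA1 did not pass the test. The TPM summed over the 48 members was 100.0 and 111.0 in the differentiated libraries, against 1190 and 735 in the undifferentiated libraries. In the median member, the differentiated mean was 11.9% of the undifferentiated mean, with a range of 2.63% for MCM10 to 67.2% for POLE. In both differentiated libraries 18 members were below 1 TPM, and no member was below 1 TPM in both undifferentiated libraries. In bulk libraries fewer cells that replicate and less RNA per cell cannot be told apart.

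**Figure D1:**
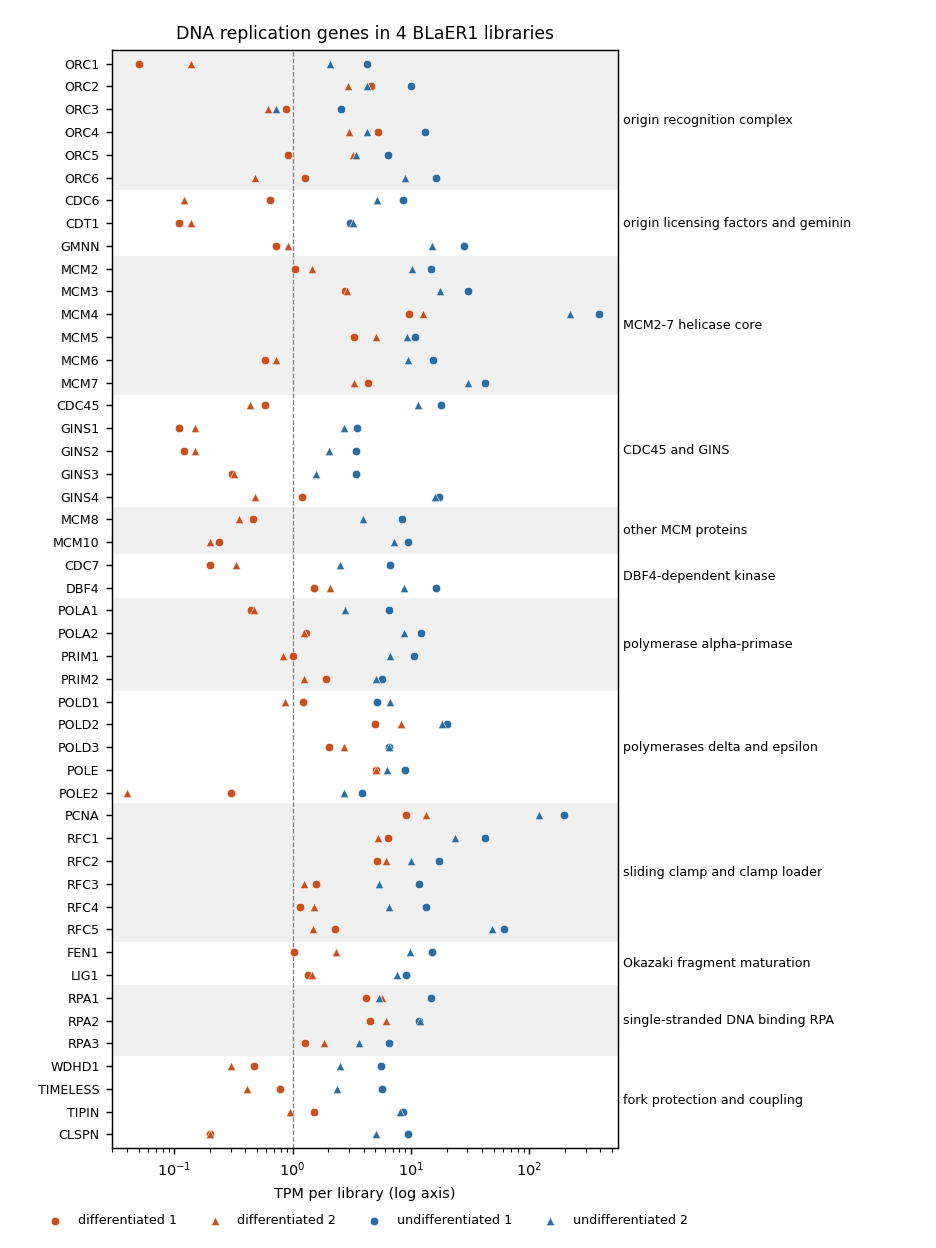
TPM of each of the 48 members in the 4 libraries, on a log axis, grouped by role; orange marks are differentiated and blue marks undifferentiated libraries, circles replicate 1 and triangles replicate 2, and the dashed line is 1 TPM. In 44 of the 48 members both differentiated libraries lie below both undifferentiated libraries.

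The stages were compared with limma on log2(TPM + 1) over the 10180 genes that reached 1 TPM in 2 or more libraries, and a gene was called at a Benjamini-Hochberg adjusted p below 0.05. Differences below are differentiated minus undifferentiated on that scale, which understates the change of genes near 1 TPM. Of all tested genes 22.8% were called lower and 18.6% higher, with a median difference of -0.14. Of the 47 tested members 42 were called lower, 0 higher and 5 neither, and all 47 differences were below 0, with a median of -1.95. Only 3968 of the 10180 tested genes, 39.0%, had both differentiated libraries below both undifferentiated ones, against the 44 of 48 members above. Of the 47 tested members, 17 passed the filter only through the undifferentiated libraries and so had to differ. They were ORC1, CDC6, CDT1, GMNN, MCM6, CDC45, GINS1, GINS2, GINS3, MCM8, MCM10, CDC7, POLA1, POLE2, WDHD1, TIMELESS and CLSPN. For these genes the lack of overlap between stages was fixed by the filter. Among the 30 with at least 1 TPM in a differentiated library, 25 were lower, where 16.6% of all such genes were lower.

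The count of calls depended on the filter and on each differentiated library. With no filter on low values 18 of the 48 members were called lower and 0 higher, where 1.96% of 29186 genes were lower and 2.35% higher. Those 18 were CDT1, GMNN, MCM2, MCM3, MCM4, MCM6, MCM7, CDC45, GINS1, GINS4, MCM10, POLA2, PRIM1, PCNA, RFC5, LIG1, TIPIN and CLSPN. Without differentiated replicate 1, 8 members were called lower (CDC45, GINS4, GMNN, MCM4, MCM7, PCNA, POLE2 and RFC5), where 3.38% of genes were. Without differentiated replicate 2, 8 were called lower, with CDT1 in place of POLE2, where 3.31% of genes were. Below, without either differentiated library means with each left out in turn, and in such a fit the lone remaining library is assumed to vary like the undifferentiated ones. GMNN, MCM4, MCM7, CDC45, GINS4, PCNA and RFC5 were called under every alternative run.

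The undifferentiated libraries differed from each other more than the differentiated ones. Undifferentiated replicate 1 exceeded replicate 2 by a median of 0.50 on the log2(TPM + 1) scale over all tested genes and by 0.68 over the 48 members, and 45 members were higher in it. The matching medians for differentiated replicate 1 minus replicate 2 were -0.06 and -0.02. Without undifferentiated replicate 1, 41 members were called lower (20.6% of all tested genes), and without undifferentiated replicate 2, 45 were (37.5%).

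**Figure D2:**
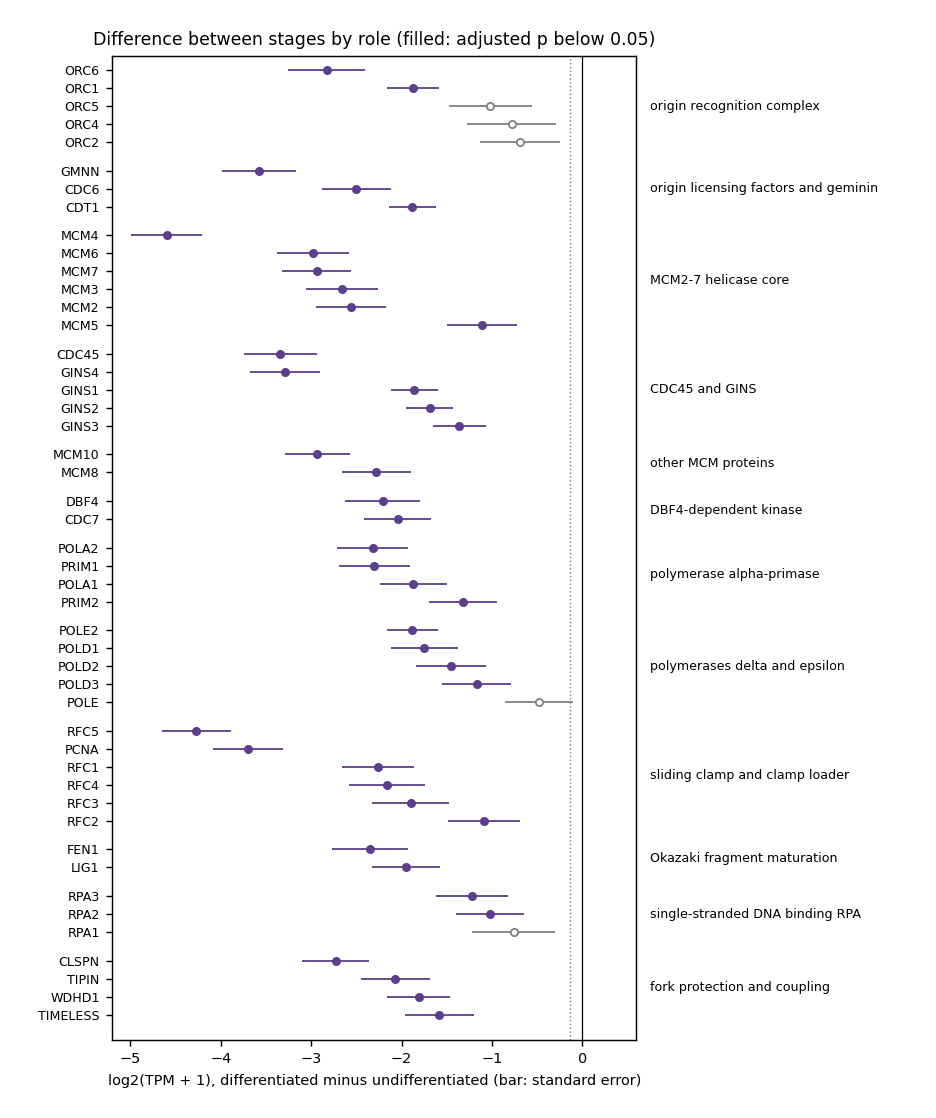
Difference between stages in log2(TPM + 1), differentiated minus undifferentiated, with its standard error, for the 47 tested members by role; filled points have an adjusted p below 0.05 and the dotted line is the median of all tested genes, -0.14. MCM4 at -4.60, RFC5 at -4.27 and PCNA at -3.70 lie farthest left, and the open points are ORC2, ORC4, ORC5, POLE and RPA1.

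In the origin recognition complex 2 subunits fell and 3 tested subunits were not called. ORC1, the subunit that cycles most in human cells, had 0.05 and 0.14 TPM in the differentiated libraries, against 4.22 and 2.08 TPM in the undifferentiated libraries. ORC6, the smallest and most loosely bound subunit, had 1.27 and 0.48 TPM in differentiated cells, against 16.18 and 8.86 TPM in undifferentiated cells. Neither gene overlapped between stages, with log2 differences of -1.87 ± 0.29 (SE, limma adjusted p = 0.000206) for ORC1 and -2.83 ± 0.43 (adjusted p = 0.000168) for ORC6. ORC1 passed the filter only through the undifferentiated libraries, so its lack of overlap was fixed by the filter. Both calls were lost without either differentiated library and with no filter (adjusted p = 0.0749 for ORC1 and 0.051 for ORC6), where no ORC subunit was called.

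The ORC2 to ORC5 core stayed closer to its undifferentiated level. ORC2 had 4.60 and 2.96 TPM in differentiated cells, against 9.97 and 4.23 TPM in undifferentiated cells, a difference of -0.69 (limma adjusted p = 0.237). ORC4, the member of the complex with the highest mean TPM after ORC6, had 5.30 and 3.02 TPM in differentiated cells, against 13.24 and 4.26 TPM in undifferentiated cells (-0.78, limma adjusted p = 0.221). Both overlapped between stages. ORC5 had 0.92 and 3.24 TPM in differentiated cells, against 6.45 and 3.47 TPM in undifferentiated cells, which do not overlap (-1.02, limma adjusted p = 0.0932). ORC3 had 0.88 and 0.62 TPM in differentiated cells, against 2.55 and 0.73 TPM in undifferentiated cells, and was not tested because only 1 library reached 1 TPM. Undifferentiated replicate 2 sat near the differentiated levels in all 4 of these genes, and without it ORC2 (-1.22, limma adjusted p = 0.0244) and ORC4 (-1.5, adjusted p = 0.019) were called lower. ORC5 was called lower with robust eBayes (adjusted p = 0.0394).

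Within a library, ratios of subunits do not depend on the scaling between libraries. The log2 ratio of ORC1 and ORC6 to ORC2 to ORC5, as mean log2 TPM, was -3.06 and -2.99 in the differentiated libraries, against 0.28 and 0.72 in the undifferentiated libraries. Of the values behind this ratio, those of ORC1 and ORC3 are below 1 TPM in both differentiated libraries. ORC6 made up 9.75% and 4.59% of the summed ORC TPM in differentiated cells, against 30.8% and 37.5% in undifferentiated cells. With 2 libraries a stage, the smallest two-sided p of an exact permutation test on a ratio is 0.333, and the ratios are given without a test.

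The factors that load the helicase, and geminin which inhibits loading, fell together. CDC6, the loading ATPase, had 0.65 and 0.12 TPM in differentiated cells, against 8.64 and 5.16 TPM in undifferentiated cells (-2.50 ± 0.38, limma adjusted p = 0.000192). CDT1, which brings MCM2-7 to the origin, had 0.11 and 0.14 TPM in differentiated cells, against 3.03 and 3.25 TPM in undifferentiated cells (-1.88 ± 0.26, limma adjusted p = 7.85e-05). GMNN, which encodes geminin, had 0.72 and 0.91 TPM in differentiated cells, against 28.26 and 15.01 TPM in undifferentiated cells (-3.58 ± 0.41, limma adjusted p = 2.46e-05). None of the 3 overlapped, and all 3 passed the filter only through the undifferentiated libraries. The log2 ratio of GMNN to CDT1 was 2.71 and 2.70 in differentiated cells, where all 4 values behind it are below 1 TPM, against 3.22 and 2.21 in undifferentiated cells. CDC6 was not called without either differentiated library, nor CDT1 without differentiated replicate 1.

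All 6 subunits of the MCM2-7 helicase ring were called lower, by unequal amounts. MCM4, with the highest mean TPM of all members, had 9.58 and 12.71 TPM in differentiated cells, against 387.25 and 220.17 TPM in undifferentiated cells. Its difference of -4.60 ± 0.39 (limma adjusted p = 2.51e-06) was the largest among the members, and its differentiated mean was 3.67% of the undifferentiated mean. MCM5 had 3.31 and 5.09 TPM in differentiated cells, against 10.86 and 9.24 TPM in undifferentiated cells (-1.11 ± 0.39, limma adjusted p = 0.0367), or 41.8%. MCM4 thus stood far above its partners in undifferentiated cells, and MCM5 kept the most of its level.

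The other 4 ring subunits lay between these extremes. MCM7 had 4.32 and 3.29 TPM in differentiated cells, against 42.07 and 30.10 TPM in undifferentiated cells, and MCM3 had 2.77 and 2.87 TPM, against 30.46 and 17.50 TPM in undifferentiated cells. MCM2 had 1.05 and 1.46 TPM in differentiated cells, against 14.80 and 10.15 TPM in undifferentiated cells. MCM6 had 0.58 and 0.72 TPM in differentiated cells, against 15.25 and 9.45 TPM in undifferentiated cells. No ring subunit overlapped between stages, and these 4 kept between 5.26% (MCM6) and 11.8% (MCM3) of the undifferentiated mean. MCM6 passed the filter only through the undifferentiated libraries and so had to differ. MCM4 and MCM7 were still called without either differentiated library, while MCM2, MCM3, MCM5 and MCM6 were not; MCM5 was also lost under both rescalings of the TPM (adjusted p = 0.082 and 0.0692), with no filter (0.127) and with the replicate block (0.0851).

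The ring is built with 1 copy of each subunit, yet its transcripts were far from equal in undifferentiated cells and less unequal in differentiated cells. MCM4 was 44.3% and 48.6% of the summed MCM2-7 TPM in differentiated cells, against 77.3% and 74.2% in undifferentiated cells. MCM5 was 15.3% and 19.5% in differentiated cells, against 2.17% and 3.12% in undifferentiated cells. MCM6, the least abundant in differentiated cells, was 2.68% and 2.75% there, against 3.05% and 3.19% in undifferentiated cells. TPM divides by transcript length, and MCM4 has 25 annotated transcripts in GENCODE release 29, from 235 to 4183 bases, against 3 to 13 for the other ring subunits. Which of them the MCM4 reads came from was not analysed here.

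**Figure D3:**
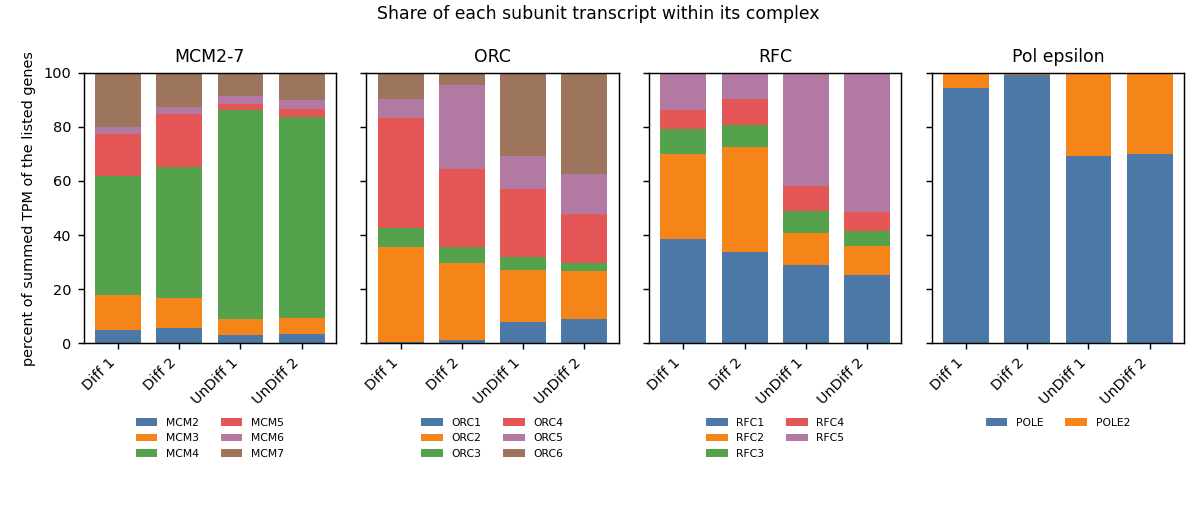
Share of each subunit in the summed TPM of its complex, in percent, for MCM2-7, ORC, RFC and the 2 polymerase epsilon members in each of the 4 libraries. MCM4, ORC6, RFC5 and POLE2 hold smaller shares in both differentiated libraries than in both undifferentiated libraries, and MCM5 and RFC2 hold larger ones.

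CDC45 and the 4 GINS subunits, which turn the ring into the active helicase, were all called lower. CDC45 had 0.58 and 0.44 TPM in differentiated cells, against 17.80 and 11.40 TPM in undifferentiated cells (-3.34 ± 0.40, limma adjusted p = 2.94e-05). GINS4 had 1.20 and 0.48 TPM in differentiated cells, against 17.42 and 15.98 TPM in undifferentiated cells (-3.29 ± 0.39, limma adjusted p = 3.2e-05). The other 3 GINS subunits were low in both stages. GINS1 had 0.11 and 0.15 TPM in differentiated cells, against 3.51 and 2.72 TPM in undifferentiated cells, and GINS2 had 0.12 and 0.15 TPM, against 3.44 and 2.03 TPM in undifferentiated cells. GINS3 had 0.31 and 0.32 TPM in differentiated cells, against 3.42 and 1.57 TPM in undifferentiated cells. All genes of this role but GINS4 passed the filter only through the undifferentiated libraries and so had to differ. No gene of this role overlapped, and CDC45 and GINS4 alone of the 5 were called without either differentiated library.

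Relative to the ORC core, helicase transcripts were lower in both differentiated libraries than in both undifferentiated ones. The log2 ratio of MCM2-7 to ORC2 to ORC5, as mean log2 TPM, was 0.23 and 0.51 in the differentiated libraries, against 2.26 and 3.06 in the undifferentiated libraries. That of CDC45 and GINS to the same core was -2.77 and -2.91 in differentiated cells, against -0.04 and 0.75 in undifferentiated cells. The ranges of the stages did not overlap in either ratio. In differentiated cells all CDC45 and GINS values are below 1 TPM except GINS4 in replicate 1, so the second ratio rests on low values.

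Both other MCM proteins and both subunits of the origin-firing kinase were called lower. MCM10, which is needed to activate the helicase, had 0.24 and 0.20 TPM in differentiated cells, against 9.46 and 7.26 TPM in undifferentiated cells (-2.93 ± 0.36, limma adjusted p = 3.62e-05). MCM8, which acts with MCM9 in repair rather than in the ring, had 0.46 and 0.35 TPM in differentiated cells, against 8.34 and 3.96 TPM in undifferentiated cells (-2.28 ± 0.38, limma adjusted p = 0.000385). At 2.63% of its undifferentiated mean, MCM10 kept the least of any member. CDC7, the kinase subunit, had 0.20 and 0.33 TPM in differentiated cells, against 6.62 and 2.53 TPM in undifferentiated cells (-2.04 ± 0.37, limma adjusted p = 0.000674). DBF4, its activator, had 1.52 and 2.08 TPM in differentiated cells, against 16.21 and 8.70 TPM in undifferentiated cells (-2.21 ± 0.41, limma adjusted p = 0.000843). In proportion the kinase transcript fell further. The log2 ratio of CDC7 to DBF4 was -2.93 and -2.66 in differentiated cells, against -1.29 and -1.78 in undifferentiated cells. Both differentiated values of CDC7 are below 1 TPM, and on the tested scale the difference of DBF4 was the larger. MCM10, MCM8 and CDC7 passed the filter only through the undifferentiated libraries and so had to differ. None of these 4 calls held without either differentiated library.

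All 4 genes of polymerase alpha-primase were called lower. POLA2, the accessory subunit with the highest mean of the complex, had 1.30 and 1.24 TPM in differentiated cells, against 12.23 and 8.76 TPM in undifferentiated cells (-2.32 ± 0.39, limma adjusted p = 0.000364). PRIM2, the large primase subunit, had the smallest fall, with 1.91 and 1.24 TPM in differentiated cells, against 5.75 and 5.05 TPM in undifferentiated cells (-1.32 ± 0.38, limma adjusted p = 0.0131). POLA1, the catalytic polymerase, had 0.45 and 0.47 TPM in differentiated cells, against 6.47 and 2.79 TPM in undifferentiated cells. POLA1 passed the filter only through the undifferentiated libraries and so had to differ. PRIM1, the catalytic primase, had 1.00 and 0.83 TPM in differentiated cells, against 10.57 and 6.69 TPM in undifferentiated cells. No library overlapped, and none of the 4 calls held without either differentiated library. PRIM1 overlaps NACA on the same strand in GENCODE release 29, and NACA had 184.45 and 198.83 TPM in differentiated cells, against 841.18 and 803.64 TPM in undifferentiated cells, so the PRIM1 value is uncertain.

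By the role median, polymerases delta and epsilon kept 34.3% of the undifferentiated level, against 11.3% for polymerase alpha-primase. POLE2, at 5.14%, kept less than any alpha-primase gene, and the catalytic subunit of epsilon did not pass the test. The log2 ratio of polymerase alpha-primase to these polymerases, as mean log2 TPM, was -0.81 and -0.58 in differentiated cells. In undifferentiated cells it was 0.15 and -0.33. POLE, the leading strand polymerase, had 5.09 and 5.07 TPM in differentiated cells, against 8.85 and 6.28 TPM in undifferentiated cells. The stages do not overlap, but the difference of -0.48 ± 0.38 was not called (limma adjusted p = 0.346), and it was 0.01 after rescaling over protein-coding genes. POLE2, its accessory subunit, had 0.30 and 0.04 TPM in differentiated cells, against 3.90 and 2.72 TPM in undifferentiated cells (-1.88 ± 0.28, limma adjusted p = 0.000163). POLE2 was 5.57% and 0.783% of the summed TPM of both in differentiated cells, against 30.6% and 30.2% in undifferentiated cells. Both differentiated shares lie below both undifferentiated ones. Both differentiated values of POLE2 are below 1 TPM, so its shares there rest on low values. POLE2 passed the filter only through the undifferentiated libraries and so had to differ.

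Polymerase delta was called lower in its 3 listed subunits. POLD2, with the highest mean of this role, had 5.01 and 8.23 TPM in differentiated cells, against 20.21 and 18.39 TPM in undifferentiated cells (-1.45 ± 0.39, limma adjusted p = 0.00938). POLD1, the catalytic subunit, had 1.22 and 0.86 TPM in differentiated cells, against 5.13 and 6.66 TPM in undifferentiated cells. POLD3 had 2.03 and 2.74 TPM in differentiated cells, against 6.59 and 6.56 TPM in undifferentiated cells. None of the 3 overlapped, and they kept 17.6% (POLD1), 34.3% (POLD2) and 36.3% (POLD3) of the undifferentiated mean. None of these calls held without either differentiated library; for POLE2 the call was lost without differentiated replicate 2. The POLD3 call was also lost with the replicate block (adjusted p = 0.0622).

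The PCNA clamp and all 5 subunits of its loader RFC were called lower. PCNA, the ring that tethers polymerases to DNA, had 9.10 and 13.32 TPM in differentiated cells, against 198.66 and 121.49 TPM in undifferentiated cells (-3.70 ± 0.39, limma adjusted p = 1.31e-05). RFC5 had 2.28 and 1.5 TPM in differentiated cells, against 61.03 and 48.03 TPM in undifferentiated cells (-4.27 ± 0.38, limma adjusted p = 3.78e-06). RFC2 had 5.21 and 6.12 TPM in differentiated cells, against 17.22 and 10.04 TPM in undifferentiated cells (-1.09 ± 0.40, limma adjusted p = 0.0429). Within the loader, RFC5 thus fell the most and RFC2 the least.

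The remaining loader genes fell by amounts between these. RFC1, the large subunit, had 6.36 and 5.29 TPM in differentiated cells, against 42.49 and 23.52 TPM in undifferentiated cells. RFC3 had 1.57 and 1.26 TPM in differentiated cells, against 11.67 and 5.36 TPM in undifferentiated cells, and RFC4 had 1.16 and 1.52 TPM, against 13.45 and 6.52 TPM in undifferentiated cells. No RFC gene overlapped. RFC5 made up 13.8% and 9.56% of the summed RFC TPM in differentiated cells, against 41.8% and 51.4% in undifferentiated cells, and RFC2 made up 31.4% and 39.0% in differentiated cells, against 11.8% and 10.7% in undifferentiated cells. PCNA and RFC5 were called without either differentiated library and the other 4 were not. The RFC2 call was also lost without undifferentiated replicate 1 (adjusted p = 0.0599), under both rescalings (0.0609 and 0.0531), with a pseudocount of 0.1 (0.05), with no filter (0.17) and with the replicate block (0.0903).

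FEN1 and LIG1, which trim and seal Okazaki fragments, were both called lower. FEN1, the flap nuclease, had 1.02 and 2.34 TPM in differentiated cells, against 15.19 and 9.77 TPM in undifferentiated cells (-2.35 ± 0.42, limma adjusted p = 0.000606). LIG1, the ligase, had 1.34 and 1.46 TPM in differentiated cells, against 9.10 and 7.56 TPM in undifferentiated cells (-1.95 ± 0.38, limma adjusted p = 0.0011). Neither overlapped, and neither call held without either differentiated library. FEN1 overlaps FADS2 on the same strand, which had 20.93 and 24.25 TPM in differentiated cells, against 22.09 and 16.96 TPM in undifferentiated cells. It also overlaps TMEM258 on the opposite strand, with 10.68 and 15.46 TPM in differentiated cells, against 59.08 and 44.38 TPM in undifferentiated cells. TMEM258 was called lower (-1.91, limma adjusted p = 0.00128). Whether the counting used strand is not stated, so the FEN1 value is uncertain.

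The RPA trimer, which coats single-stranded DNA in replication and in repair, kept more of its level. RPA1 had 4.20 and 5.72 TPM in differentiated cells, against 14.83 and 5.34 TPM in undifferentiated cells. Its stages overlapped, and it was not called (-0.76, limma adjusted p = 0.208), except without undifferentiated replicate 2 (-1.42, limma adjusted p = 0.0111). RPA2 had 4.49 and 6.19 TPM in differentiated cells, against 11.62 and 11.91 TPM in undifferentiated cells (-1.02 ± 0.38, limma adjusted p = 0.046). RPA3 had 1.27 and 1.83 TPM in differentiated cells, against 6.52 and 3.61 TPM in undifferentiated cells (-1.22 ± 0.40, limma adjusted p = 0.026). The trimer subunits kept between 30.6% (RPA3) and 49.2% (RPA1). The RPA2 and RPA3 calls were lost without either differentiated library, and that of RPA2 with median-of-ratios scaling (adjusted p = 0.0541), both rescalings (0.118 and 0.13), a pseudocount of 0.1 (0.0547), no filter (0.119) and the replicate block (0.116).

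The 4 genes of fork protection and coupling were called lower. CLSPN, which encodes the checkpoint adaptor claspin, had 0.20 and 0.20 TPM in differentiated cells, against 9.47 and 5.09 TPM in undifferentiated cells (-2.73 ± 0.37, limma adjusted p = 7.76e-05). TIPIN had 1.53 and 0.95 TPM in differentiated cells, against 8.56 and 8.08 TPM in undifferentiated cells (-2.07 ± 0.38, limma adjusted p = 0.000776). TIMELESS, its binding partner in the fork protection complex, had 0.78 and 0.41 TPM in differentiated cells, against 5.70 and 2.36 TPM in undifferentiated cells (-1.58 ± 0.38, limma adjusted p = 0.00429). WDHD1, which couples polymerase alpha to the helicase, had 0.47 and 0.30 TPM in differentiated cells, against 5.61 and 2.54 TPM in undifferentiated cells. CLSPN, TIMELESS and WDHD1 passed the filter only through the undifferentiated libraries and so had to differ. No gene of this role overlapped, and none was called without either differentiated library.

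By role, then, the median share of the undifferentiated level that was kept ran from 3.98% for the licensing factors with geminin and 4.94% for CDC45 with GINS to 43.8% for ORC and 45.4% for RPA. MCM2-7 kept a median of 10.3%, polymerase alpha-primase 11.3%, fork protection 12.1%, the clamp with its loader 15.0% and polymerases delta and epsilon 34.3%. These medians are over 3 to 6 genes a role and were not tested against each other. The roles of 2 genes kept 4.61% (other MCM proteins), 10.1% (CDC7 with DBF4) and 15.2% (FEN1 with LIG1). All licensing genes, and all of CDC45 and GINS but GINS4, passed the filter only through the undifferentiated libraries. The lowest shares thus rest largely on values below 1 TPM.

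Members with and without an E2F-type match overlapped in how far they fell. Of the 21 tested members with a match 20 were called lower, with a median difference of -2.07, and of the 20 without 16 were, with a median of -1.84. The median share of the undifferentiated level that was kept was 7.0% with a match and 14.7% without, and the difference between these sets was not tested. With a match, CDC6, CDT1, GMNN, MCM6, GINS1, GINS2, GINS3, MCM8, CDC7, POLA1, POLE2 and CLSPN passed the filter only through the undifferentiated libraries. Without a match, ORC1, CDC45, MCM10, WDHD1 and TIMELESS did so. All of these had to differ, so the calls and shares of the sets cannot be compared evenly. The differences ranged from -3.70 (PCNA) to -0.48 (POLE) with a match and from -4.27 (RFC5) to -0.69 (ORC2) without. Among tested protein-coding genes outside the members, 30.3% of the 519 with a match and 21.4% of the 6866 without were called lower.

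**Figure D4:**
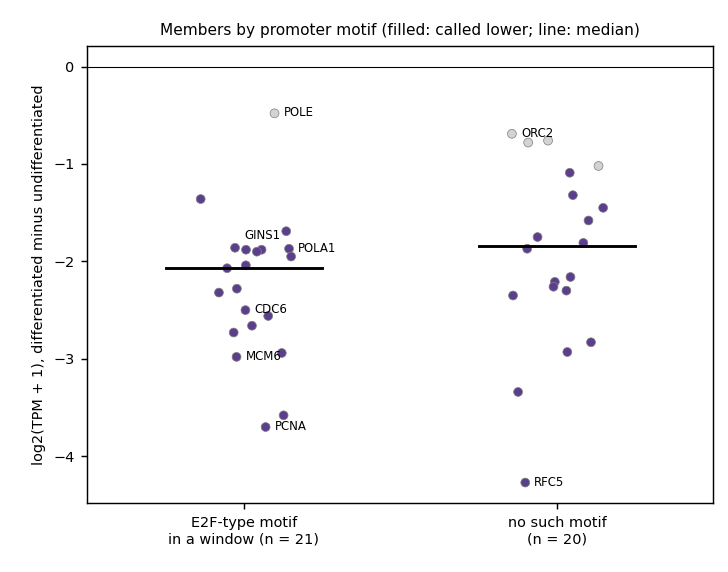
Difference in log2(TPM + 1), differentiated minus undifferentiated, of the 41 tested members with a promoter window, split by whether a window holds an E2F-type match; lines are medians, purple points were called lower. The 21 members with a match (median -2.07) and the 20 without (median -1.84) overlap over most of their range. More of those with a match passed the filter only through the undifferentiated libraries.

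Among genes that work beside the machinery some were called lower and some were not. Of 32 other fork and chromatin assembly genes, 29 were tested, 20 were lower and 1 was higher, with a median of -1.57, where 22.8% of all tested genes were lower and 18.6% higher. Among the 29 tested, 10 passed the filter only through the undifferentiated libraries and so had to differ, UHRF1 among them. Of the other 19, 10 were lower. With no filter 6 were lower, and 2 were lower without either differentiated library. UHRF1, which directs maintenance DNA methylation to new strands, fell the most, with 0.34 and 0.64 TPM in differentiated cells, against 31.85 and 26.86 TPM in undifferentiated cells (-4.35 ± 0.38, limma adjusted p = 3.42e-06). POLD4, the small subunit of polymerase delta, rose, with 15.25 and 9.28 TPM in differentiated cells, against 1.24 and 1.33 TPM in undifferentiated cells (2.50 ± 0.40, limma adjusted p = 0.000262), a call lost without differentiated replicate 1 (adjusted p = 0.0936) or 2 (0.0575). Among 12 translesion and repair polymerase genes, 9 were tested, 3 lower (MAD2L2, POLB and POLQ) and 0 higher with limma. Their median was -0.06, and 22.8% of all tested genes were lower. POLQ passed the filter only through the undifferentiated libraries and so had to differ, and 2 of the other 8 were lower. POLB (limma adjusted p = 0.0569 with no filter) and POLQ (0.0621) were not called with no filter nor without either differentiated library. MAD2L2, which belongs to polymerase zeta and also acts in mitosis and end protection, had 1.89 and 1.77 TPM in differentiated cells, against 22.48 and 16.60 TPM in undifferentiated cells (-2.84 ± 0.38, limma adjusted p = 7.33e-05; 0.0504 without differentiated replicate 2).

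Supply of DNA precursors and the regulators of S phase included genes that rose. Of 10 genes for nucleotide supply 7 were lower and 2 higher, with a median of -2.39, where 22.8% of all tested genes were lower and 18.6% higher. Of the 10, 2 passed the filter only through the undifferentiated libraries, and 5 of the other 8 were lower. With no filter 4 were lower and 1 higher, and without differentiated replicate 1 or 2 the lower calls were 2 and 3. RRM2, the S-phase subunit of ribonucleotide reductase, had 1.27 and 2.14 TPM in differentiated cells, against 66.43 and 43.25 TPM in undifferentiated cells (-4.35 ± 0.40, limma adjusted p = 4.49e-06). SAMHD1, which breaks down deoxynucleotides, had 6.04 and 5.83 TPM in differentiated cells, against 0.19 and 0.04 TPM in undifferentiated cells (2.64 ± 0.32, limma adjusted p = 3.3e-05). SAMHD1 passed the filter only through the differentiated libraries and so had to differ. RRM2B, the reductase subunit used outside S phase, had 10.73 and 10.42 TPM in differentiated cells, against 3.78 and 1.56 TPM in undifferentiated cells (1.73, limma adjusted p = 0.00478; 0.227 and 0.221 without differentiated replicate 1 or 2). The 2 reductase small subunits thus changed in opposite directions.

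Cyclins and their inhibitors also moved apart. Of 12 cyclin, CDK2 and inhibitor genes 9 were tested, 4 lower and 3 higher, the 3 being CDK inhibitors. Over all tested genes 22.8% were lower and 18.6% higher. Of the 9, 2 passed the filter only through the undifferentiated libraries, and 2 of the other 7 were lower. With no filter 1 was lower and 2 higher, and without either differentiated library 0 were lower and 2 higher by limma. CDKN1A (p21) had 25.64 and 30.25 TPM in differentiated cells, against 5.39 and 3.40 TPM in undifferentiated cells (2.44 ± 0.39, limma adjusted p = 0.000241; 0.0706 and 0.0887 without differentiated replicate 1 or 2). CDKN1C (p57) had 7.10 and 10.81 TPM in differentiated cells, against 0.17 and 0.00 TPM in undifferentiated cells (3.18 ± 0.37, limma adjusted p = 2.36e-05). CDKN2B (p15) had 2.81 and 1.49 TPM in differentiated cells, against 0.00 and 0.01 TPM in undifferentiated cells (1.62, limma adjusted p = 0.000142). CDKN1C and CDKN2B passed the filter only through the differentiated libraries and so had to differ. CCNE2, a cyclin E that drives S-phase entry, had 0.31 and 1.03 TPM in differentiated cells, against 13 and 7.18 TPM in undifferentiated cells (-2.71 ± 0.42, limma adjusted p = 0.000208; 0.104 and 0.0608 without differentiated replicate 1 or 2). With no filter CDKN2B (limma adjusted p = 0.0772), CCNE2 (0.0549) and, among the nucleotide genes above, RRM2B (0.0968) were not called.

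Of 19 E2F, RB and MuvB regulators 12 were lower and 1 higher, with a median of -1.19, where 22.8% of all tested genes were lower and 18.6% higher. Of the 19, 8 passed the filter only through the undifferentiated libraries, and among the 11 with at least 1 TPM in a differentiated library 4 were lower. With no filter 2 were lower and 0 higher by limma, and without differentiated replicate 1 or 2 the lower calls were 2 and 3. E2F1, an activator of these genes, had 0.02 and 0.05 TPM in differentiated cells, against 1.66 and 1.09 TPM in undifferentiated cells (-1.19 ± 0.19, limma adjusted p = 0.000291; 0.0839 with no filter). MYBL2, which joins MuvB to switch on mitotic genes, fell the most, with 0.54 and 0.67 TPM in differentiated cells, against 24.90 and 14.92 TPM in undifferentiated cells (-3.66 ± 0.40, limma adjusted p = 1.7e-05). LIN37, a MuvB subunit, was the 1 that rose, with 1.72 and 1.85 TPM in differentiated cells, against 0.11 and 0.25 TPM in undifferentiated cells (1.24 ± 0.22, limma adjusted p = 0.000486, and 0.0747 with no filter). LIN37 passed the filter only through the differentiated libraries, and E2F1 and MYBL2 only through the undifferentiated ones, so these genes had to differ. E2F4, mostly a repressor, had 12.84 and 11.37 TPM in differentiated cells, against 15.49 and 13.80 TPM in undifferentiated cells and was not called (-0.26, limma adjusted p = 0.618). RB1 had 11.34 and 13.40 TPM in differentiated cells, between the 17.91 and 6.08 TPM of the undifferentiated libraries (0.20, limma adjusted p = 0.759). RB1 was called higher without undifferentiated replicate 1 (0.91, limma adjusted p = 0.033).

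Of the 14 mitotic proliferation genes 14 were called lower, with a median of -2.96, where 22.8% of all tested genes were lower. MKI67, which encodes the proliferation antigen Ki-67, fell the most, with 0.88 and 0.62 TPM in differentiated cells, against 34.40 and 19.57 TPM in undifferentiated cells (-3.95 ± 0.41, limma adjusted p = 1.13e-05). Of the 14 genes, 10 passed the filter only through the undifferentiated libraries and so had to differ, MKI67 among them. All 4 with at least 1 TPM in a differentiated library were lower. With no filter 9 were called lower, without differentiated replicate 1 only 2, and without differentiated replicate 2 only 4, and the list was not tested against the others.

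**Figure D5:**
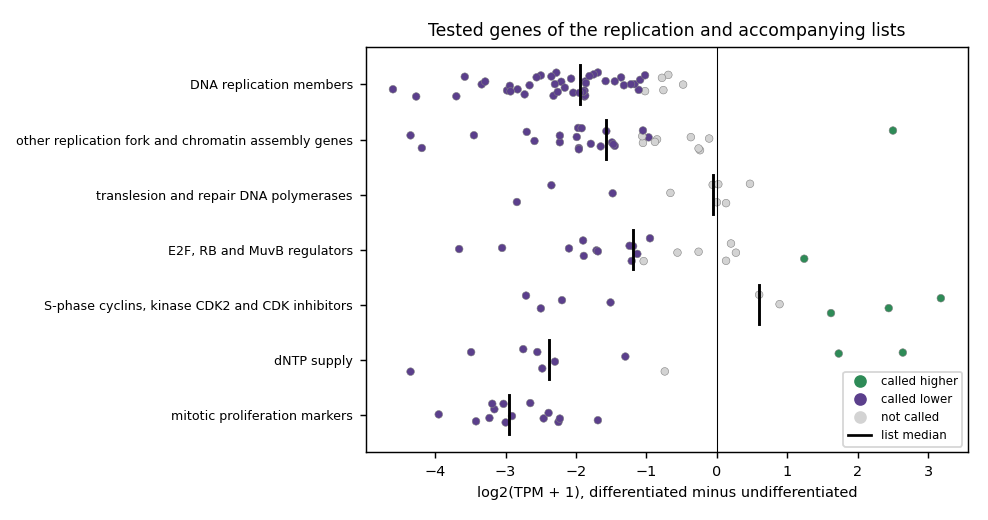
Difference in log2(TPM + 1), differentiated minus undifferentiated, of every tested gene in the replication list and in 6 accompanying lists; green points were called higher, purple points lower and grey points neither, and black bars are list medians. The members (median -1.95), nucleotide supply (-2.39) and mitotic genes (-2.96) lie mostly left of 0, and translesion polymerases (-0.06) are centred near it.

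Neighbours and copies bear on how far a row can be read as its gene. In GENCODE release 29, 13 members have a protein-coding gene starting head to head within 1000 bases, and 8 of these partners were tested. PRPF38A beside ORC1 (-1.48, limma adjusted p = 0.0118), PRKDC beside MCM4 (-2.00, adjusted p = 0.00363) and VPS35 beside ORC6 (-1.85, adjusted p = 0.00371) were called lower. MAP2K1 beside TIPIN was called higher (1.38, limma adjusted p = 0.0111), and the partners SOCS4, CDS2, TRMT6 and UFD1 were not called; all 4 partner calls were lost with no filter and without either differentiated library. Separately, 13 members overlap another gene on the same strand and 27 overlap one on either strand; the library kit keeps strand, but whether the counting used strand is not stated, which leaves these values uncertain. Of 11 pseudogene rows named after members 9 were listed at 0 in all 4 libraries, and no other value exceeded 0.30 TPM.

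Markers of both fates moved with the cell labels. All 11 B-lineage markers were called lower, with summed levels of 13.4 and 16.6 TPM in differentiated cells, against 627 and 371 TPM in undifferentiated cells. All 11 macrophage and monocyte markers were called higher, with 1070 and 1250 TPM in differentiated cells, against 17.4 and 11.3 TPM in undifferentiated cells. CD163 and FCGR1A were listed at 0 in undifferentiated cells. Over all tested genes 22.8% were lower and 18.6% higher. Of the B-lineage markers 5 passed the filter only through the undifferentiated libraries. Of the macrophage and monocyte markers 8 passed it only through the differentiated libraries. These markers had to differ. Of 6 T-cell markers CD3D and CD3E were listed at 0 in every library, and TRAC, which immature lymphoid cells can transcribe, was the 1 tested. TRAC had 3.82 and 6.61 TPM in differentiated cells, against 109.9 and 51.47 TPM in undifferentiated cells. It was called lower (-3.65, limma adjusted p = 3.24e-05). The erythroid and granulocyte lists each summed to at most 0.47 TPM in a differentiated library and 0 in the undifferentiated libraries. Of 12 housekeeping genes 1 was lower (PPIA), 2 were higher (ACTB and B2M) and 9 were not called, with a median of -0.41. What part the change of cell fate had in the replication values was not tested.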

How the data were processed

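RNA was sequenced from 2 differentiated and 2 undifferentiated BLaER1 libraries with a stranded total RNA kit, per the labels' protocols. The deposited values are TPM per gene, made by the authors with Trimmomatic, STAR and RSEM, per the submitters' processing notes. Tool versions, the build and the gene models were not given in the sources used here. Every library is scaled to the same sum, so depth is unknown and no counting interval can be given. Of the 58302 row IDs 58039 were found in GENCODE release 29, used only for gene types, neighbours and transcripts.

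Genes reaching 1 TPM in 2 or more libraries were tested with limma 3.58.1 (R 4.3.3, eBayes with a trend) on log2(TPM + 1). Benjamini-Hochberg adjustment ran over all tested genes, and the fit has 2 residual and 10.9 prior degrees of freedom. The code was run on simulated data whose variances were drawn from the fitted prior. That run cannot show whether the prior holds for these libraries. Counts needed for edgeR or DESeq2 were not used here. The alternatives were pseudocounts of 0.1 and 0.5, no filter or a mean of at least 5 TPM, median-of-ratios or quantile scaling, rescaling without genes averaging over 1000 TPM or over protein-coding genes, other eBayes settings, a replicate block, and leaving out each library.

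The members and lists were chosen with earlier results of these data known. All members are given with their 4 values; in each role those with the largest fall, any largest rise and the highest mean TPM, and from each accompanying list the called genes with the largest fall and rise plus E2F1, MKI67, CDKN1A and RRM2, have full statistics, as do some members with the smallest fall. CDKN2B, RRM2B, POLB, POLQ, E2F4, RB1, NACA, FADS2, TMEM258 and the head-to-head partners were named after their values were seen. Promoter windows are from RefSeq.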

Additional observations from a re-analysis of the deposited data

How the results depend on the processing

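Of the 10180 tested genes 4216 were called between stages, 2326 lower and 1890 higher. With no filter the calls were 1260 in all, 573 lower and 687 higher, and with a mean of at least 5 TPM 1867, 1187 and 680. Rescaling without abundant RNAs called 6387 genes, 3972 of them higher, rescaling over protein-coding genes called 4102 higher, and median-of-ratios scaling 2915 higher. The higher share of all calls was 62.2% without abundant RNAs and 65.6% over protein-coding genes, against 44.8% as reported; these rescalings moved the median of all genes to 0.26 and 0.37 and median-of-ratios scaling to 0.04. The members' median minus that of all genes was -2.79 without abundant RNAs, -2.73 over protein-coding genes and -1.83 with median-of-ratios scaling, against -1.82 as reported. Leaving out each library in turn gave 1271 to 5652 calls, 337 to 3818 lower and 934 to 2714 higher. Members called lower numbered 42 as reported, 18 with no filter, 20 of 24 tested with a mean of at least 5 TPM, 39 of 48 under either rescaling and 8 to 45 when each library was left out; none was called higher under any of these settings. The members' median difference was -1.95 as reported, -2.96 and -2.44 with pseudocounts of 0.1 and 0.5, -2.54 without abundant RNAs, and -2.36 to -1.80 when each library was left out. The sign turned for POLE (0.01 over protein-coding genes), E2F4 (0.08 with quantile normalization, 0.10 without abundant RNAs, 0.29 over protein-coding genes) and RB1 (-0.5 without undifferentiated replicate 2, and called higher at 0.91 without undifferentiated replicate 1); no turned value was called, and the cause was not tested. Same-numbered libraries did not deviate together (correlation -0.0237), so the numbers are taken as names only; with the replicate block 3766 genes were called, 2036 lower and 1730 higher, and 38 members were lower. Unknown depth limits what can be said of members below 1 TPM.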
